A study of Mus musculus with 15 samples.

Results

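Car2 encodes carbonic anhydrase 2, and its messenger RNA was followed across 15 bulk RNA-seq libraries of mouse hematopoietic stem cells (HSCs). It is 1 gene of the 35533 gene symbols quantified, with 3 annotated transcripts of 117135, and 1 of the 13358 genes that passed a filter on low counts. The gene was chosen by its measured level, because Car2 was lower in GFI1-KD HSCs when set against GFI1-KI, and lower in Gfi1-KO HSCs when set against Gfi1-WT. Values of these pairs of genotypes are therefore given as a description, without a test.

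The HSCs were sorted from untreated mice by the gate Lin−Sca1+c-Kit+CD150+CD48−, and each of 5 genotypes has 3 libraries. Gfi1-WT mice carry murine Gfi1, a transcriptional repressor of blood cell development. GFI1-KI mice (KI/KI) carry human GFI1 in the murine locus. GFI1-36N mice carry there the human variant with asparagine at the named residue, whereas the library titles name the GFI1-KI allele GFI1-36S. In GFI1-KD mice the human gene sits in the locus together with a Neo cassette placed against the direction of transcription, which lowers its expression. Gfi1-KO mice lack Gfi1. The age and sex of the mice, and whether a library came from 1 animal or from a pool, were not given in the sources used here. The p values below then measure the spread between these libraries only.

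Libraries held between 16.2 and 20.6 M estimated counts (median 18.0 M). The value columns and the labels share a number, by which they were matched although no text says so in words, and the targeted gene did not follow the genotypes. Gfi1 had 105, 54.5 and 0 estimated counts in the libraries labelled Gfi1-KO and 4.85, 0 and 0 in those labelled Gfi1-WT. It had 0, 126 and 31.2 in GFI1-KI, 422, 73.3 and 0 in GFI1-36N, and 0, 0 and 267 in GFI1-KD, whose human GFI1 is not in the mouse reference. Each genotype below is therefore the label of a library. Among the genes of the sort, Kit was read in every library (159 to 824 CPM). Ly6a, which encodes Sca1, was at 0 in Gfi1-WT replicate 3, the Gfi1-WT library with the least Car2, and at 12.7 to 97.1 CPM in the others. In Gfi1-KO replicate 2, however, Cd48 was at 502 CPM (at most 46.1 in the other libraries) and Slamf1, which encodes CD150, at 1.29 CPM (at least 9.58 in the others). GFI1-36N replicate 3 stood apart from the rest, with a median Spearman correlation to the other libraries of 0.557. GFI1-KD replicate 1 was the next lowest at 0.682, close to GFI1-KI replicate 1 at 0.710. The median over libraries was 0.756. The summed level of the Y-linked genes Ddx3y, Eif2s3y, Kdm5d and Uty was between 195 and 669 CPM in GFI1-KD replicates 1 and 3 and GFI1-36N replicates 1 and 2, and at most 17.7 CPM in the other libraries.

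Carbonic anhydrases are zinc enzymes that turn carbon dioxide and water into bicarbonate and a proton, and back. Carbonic anhydrase 2 is a fast, cytosolic member of the family. In red blood cells it serves the transport of carbon dioxide, and in osteoclasts it supplies the protons with which bone is dissolved. In humans, loss of the enzyme causes a form of osteopetrosis with renal tubular acidosis. Within bone marrow, Car2 is known to be read in early erythroid and megakaryocytic progenitors as well as in stem cells.

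In GRCm38, Car2 (ENSMUSG00000027562) lies on the plus strand of chromosome 3, from 14886273 to 14900770. The main transcript Car2-201 (ENSMUST00000029078.8, 14886428 to 14900770) has 7 exons and 1788 bases, of which the coding part spells 260 codons before the stop. Car2-202 (ENSMUST00000192609.5) is a shorter coding model of 4 exons and 587 bases. Car2-203 (ENSMUST00000195520.1, 14886639 to 14888566) is annotated as a retained intron, since it does not stop at the end of exon 2 but is read on for 535 bases into intron 2, which is 6990 bases long. Those intronic bases, 14888032 to 14888566, are the part by which reads of Car2-203 can be told from reads of Car2-201, and the other 346 bases are shared. The 2 forms part at the end of exon 2 (chr3:14888012-14888031, in lower case). They are shown from that end with the first bases of exon 3 or of intron 2 in capitals, as in the GENCODE M21 transcripts on GRCm38.
Car2-201: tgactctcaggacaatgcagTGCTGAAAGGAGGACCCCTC
Car2-203: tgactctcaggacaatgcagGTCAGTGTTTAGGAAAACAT
The spliced form goes on at the start of exon 3 (chr3:14895022-14895041), and the other form goes on without a gap (chr3:14888032-14888051). Of the 1758 stretches of 31 bases in Car2-201, 1297 occur in no other Car2 transcript, and for Car2-203 these are 535 of 851. None of these stretches was found in a transcript of another gene, so that reads of Car2 are not shared with its paralogs at this length.

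Car2 was among the most abundant messenger RNAs of these HSCs, and it was lower in all libraries labelled GFI1-KD and Gfi1-KO than in all others. CPM is the estimated count per M counts of a library, after TMM normalization between libraries. Car2 was at 3936, 4996 and 2065 CPM in Gfi1-WT, with a mean of 3666 ± 1484 CPM (SD, n = 3). In GFI1-KI it was at 2854, 3042 and 3480 CPM, with a mean of 3125 ± 321 CPM (SD, n = 3). In GFI1-36N the libraries were at 2519, 3255 and 3598 CPM, with a mean of 3124 ± 551 CPM (SD, n = 3). These 3 genotypes overlapped, and Gfi1-WT held the highest and the lowest of their 9 libraries. In GFI1-KD Car2 was at 1974, 1460 and 1660 CPM, with a mean of 1698 ± 259 CPM (SD, n = 3). In Gfi1-KO it was at 1595, 978 and 1565 CPM, with a mean of 1379 ± 348 CPM (SD, n = 3). The 6 libraries of GFI1-KD and Gfi1-KO (978 to 1974 CPM) thus lay below the other 9 (2065 to 4996 CPM), and they overlapped with each other. The gap between the sets is narrow, since Gfi1-WT replicate 3 lay just above GFI1-KD replicate 1. By mean level the order was Gfi1-WT, GFI1-KI, GFI1-36N, GFI1-KD and Gfi1-KO, in which the means of GFI1-KI and GFI1-36N differ by far less than their SDs.

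**Figure D1:**
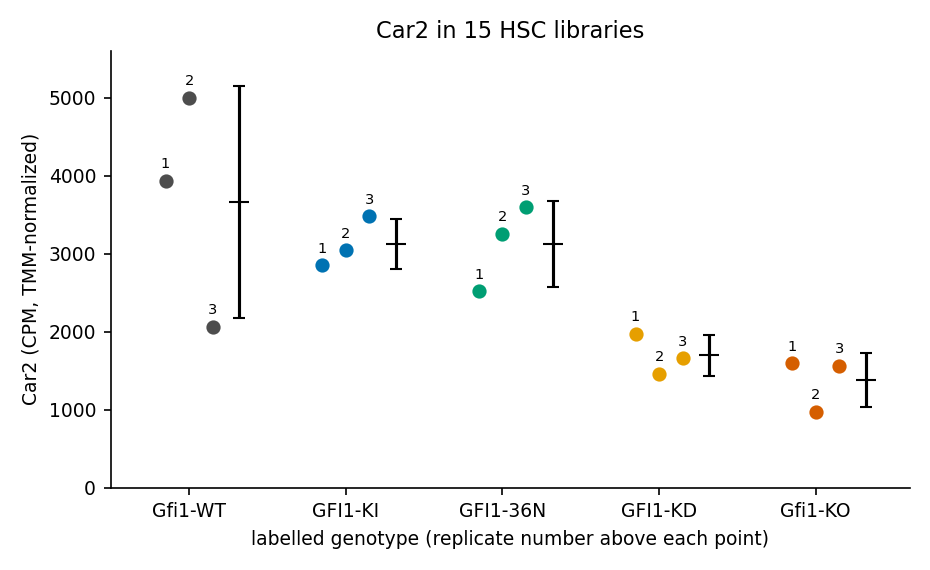
Car2 level in CPM (vertical axis, from 0) in each of the 15 libraries by labelled genotype, with the replicate number above each point and the mean with its SD (n = 3) as a bar to the right. All 6 GFI1-KD and Gfi1-KO libraries sit between 978 and 1974 CPM, below the lowest of the other libraries at 2065 CPM.

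Estimated counts behind these values ranged from 15970 in Gfi1-KO replicate 2 to 86238 in Gfi1-WT replicate 2, or 0.0886% to 0.489% of a library. Counting error at this depth is 0.341% to 0.791% of the value, far below the spread between libraries of a genotype. The coefficient of variation between libraries was 40.5% in Gfi1-WT, 25.2% in Gfi1-KO, 17.7% in GFI1-36N, 15.3% in GFI1-KD and 10.3% in GFI1-KI. In the fit across all genes, Car2 had a biological coefficient of variation of 0.324, whereas the common value over genes was 1.39. Among the 96 genes with a mean of at least 1000 CPM, it took place 79 from the lowest, with a median of 0.289, and by mean level Car2 was gene 22 of all. Abundant genes vary little in these libraries, and among them Car2 is one of the more variable.

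In GFI1-KD HSCs the Car2 level was 54.3% of that in GFI1-KI, a log2 fold change of −0.88 with a standard error of 0.27. In Gfi1-KO HSCs it was 37.6% of that in Gfi1-WT, a log2 fold change of −1.41 with a standard error of 0.28. Over all 13358 genes the median log2 fold change was 0 in the first comparison and −0.034 in the second. None of the 96 genes with a mean of at least 1000 CPM had a lower log2 fold change than Car2 in either comparison. As Car2 was chosen for being lower in both, this place is a description and no independent result. Over all genes, 2838 had a lower value in the first and 2008 in the second, with a median standard error of 1.62 in both. Leaving out single libraries gave values from −1.0 to −0.78 in the first comparison and from −1.67 to −1.07 in the second. Without Gfi1-KO replicate 2, the library with high Cd48 and the lowest Car2, the log2 fold change in the second comparison was −1.19. That all these values stay negative follows from the choice of Car2, as its groups did not overlap. The level of Y-linked genes moved with the first comparison, being high in 2 of 3 GFI1-KD libraries (Car2 at 1974 and 1660 CPM, against 1460 CPM in the low one) and in 0 of 3 GFI1-KI libraries. In GFI1-36N the libraries high in them had Car2 at 2519 and 3255 CPM and the low one at 3598 CPM. All Gfi1-KO and Gfi1-WT libraries were low in them. Their part in the Car2 level was not tested. In bulk HSCs, fewer cells that use Car2 and less Car2 RNA per cell cannot be told apart.

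**Figure D2:**
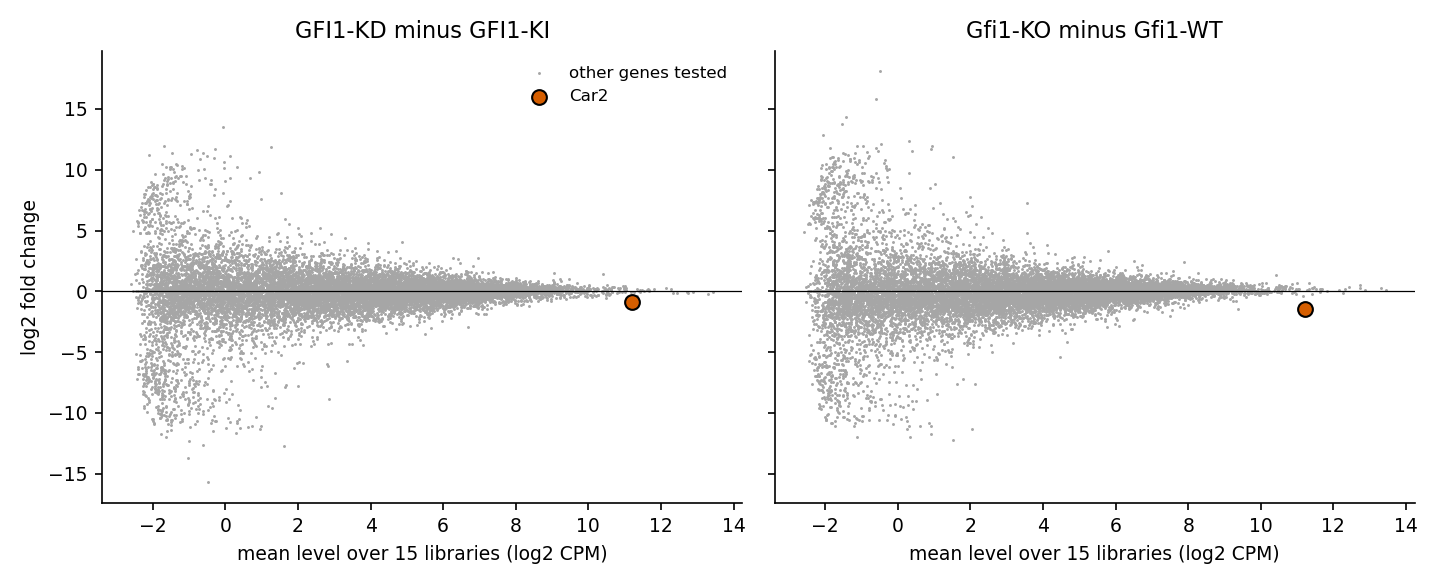
Log2 fold change (vertical axis) against the mean level over the 15 libraries in log2 CPM (horizontal axis) for the 13358 genes tested, for GFI1-KD minus GFI1-KI (left) and Gfi1-KO minus Gfi1-WT (right). Car2, the large point at −0.88 and −1.41, was chosen for being lower in both comparisons. It lies below every other gene of at least 1000 CPM, where most genes sit close to 0.

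The pattern by which Car2 was chosen was also counted over all genes. At an adjusted p of 0.05 in edgeR, 0% of 13358 genes passed in each of the 5 comparisons made here, which are these 2, GFI1-KI minus Gfi1-WT, and GFI1-36N minus either control. Between 279 and 614 of the 13358 genes had an unadjusted p under 0.05 in edgeR. This is a share below 0.05 in each comparison, no more than that threshold passes without any effect. Limma-trend called 0 genes in each comparison and DESeq2 called between 131 and 365 of the 13358. For 674 genes (5.05%) every GFI1-KD library had a lower CPM than any GFI1-KI library, and for 655 genes (4.9%) the same held of Gfi1-KO and Gfi1-WT. For 49 genes (0.367%) both held. By mean level Car2 was the highest of these 49, and the next were Myc at 309 CPM, which encodes a transcription factor of growth, and Fto at 189 CPM, which encodes an RNA demethylase. For 2 genes (0.015%), Car2 and Rspry1 (mean of 95.7 CPM), all 6 GFI1-KD and Gfi1-KO libraries lay below all 9 others. Such separations also arise without an effect of genotype. In an exact two-sided permutation test, full separation of 3 libraries from 3 has p = 0.1. The counts expected from a random order of libraries were not computed for any of these shares, so that no excess is claimed. Rspry1, Myc and Fto were named after their values were seen. The count of 49 moved when a library was left out, as 1 library fewer makes separation easier. It was 103 or 82 without Gfi1-KO replicate 1 or 2, 74 or 107 without GFI1-KD replicate 2 or 3, 94 without either GFI1-KI replicate 1 or 3, and 120 or 85 without Gfi1-WT replicate 2 or 3.

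The other comparisons were not used to choose Car2, although their control libraries were. They ask whether human GFI1 in the murine locus, or its 36N variant, comes with another level of Car2. Between GFI1-KI and Gfi1-WT HSCs, Car2 had a log2 change of −0.23 (standard error 0.27, 95% interval −0.82 to 0.36, edgeR adjusted p = 1). An exact two-sided permutation test of the CPM values gave p = 0.6, where 3 libraries against 3 allow no p below 0.1. Between GFI1-36N and GFI1-KI HSCs it was −0.00082 (standard error 0.27, 95% interval −0.59 to 0.59, edgeR adjusted p = 1, exact permutation p = 1). Between GFI1-36N and Gfi1-WT HSCs it was −0.23 (standard error 0.27, 95% interval −0.82 to 0.36, edgeR adjusted p = 1, exact permutation p = 0.6). No difference in Car2 between these genotypes was detectable, and the intervals leave room for changes of up to 0.82 on the log2 scale. The direction against Gfi1-WT rests on Gfi1-WT replicate 2, the library with the most Car2. Without it, the log2 fold change against Gfi1-WT was 0.088 for GFI1-KI and 0.087 for GFI1-36N.

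Nearly all Car2 RNA was assigned to the main transcript. Car2-201, the full coding form, made up between 97.2% and 100% of the estimated counts of Car2 transcripts, with a median of 98.8%. Car2-202 was at 0 in all 15 libraries. The level of Car2-201 alone followed that of the gene, with means of 3680 CPM in Gfi1-WT, 3105 in GFI1-KI, 3195 in GFI1-36N, 1708 in GFI1-KD and 1423 in Gfi1-KO (SD from 304 to 1489, n = 3 each).

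The rest was Car2-203, the form with bases of intron 2 shown above, and it was lowest in Gfi1-KO HSCs. Its estimated counts were 81, 0 and 0 in Gfi1-KO and 843, 398 and 638 in Gfi1-WT, without overlap. In GFI1-KD they were 0, 349 and 654, and in GFI1-KI 680, 1763 and 1345, also without overlap. In GFI1-36N they were 774, 864 and 0. Car2-203 was thus listed at 0 in 3 of the 6 GFI1-KD and Gfi1-KO libraries and in 1 of the 9 others. Of these, GFI1-36N replicate 3 and GFI1-KD replicate 1 are the libraries that correlated least with the rest, and Gfi1-KO replicate 2 is the one with high Cd48. Gene symbols above 0 numbered 9415 and 11631 in the former, and 12357 and 11795 in Gfi1-KO replicates 2 and 3. Over all libraries the range was 9415 to 15125 (median 13051). Gfi1-WT replicate 3, with 12305 symbols, had a Car2-203 count of 638. The part of gene detection in these zeros was not tested. How many of all transcripts separate without overlap was not counted. By CPM, 5.05% of genes were lower without overlap in GFI1-KD and 4.9% in Gfi1-KO. Since Car2 was chosen on these comparisons, the separation of its transcript is given as a description.
As a share of Car2 transcripts, Car2-203 was at 1.2%, 0.458% and 1.81% in Gfi1-WT and at 0.295%, 0% and 0% in Gfi1-KO. The 95% Wilson interval was 0.238% to 0.368% for the highest Gfi1-KO share and 0.415% to 0.505% for the lowest Gfi1-WT share. In Gfi1-KO replicates 2 and 3, with a count of 0, the upper Wilson limit was 0.0229% and 0.0132%. These intervals and limits cover counting error only, and not the error of dividing reads between transcripts. In GFI1-KD the share was 0%, 1.14% and 2.03%, which overlaps with the 1.25%, 2.76% and 2.04% of GFI1-KI, so that in GFI1-KD the share did not separate from the control where the level did. In GFI1-36N it was 1.63%, 1.32% and 0%.
The mean share was 2.02% ± 0.76 in GFI1-KI, 1.16% ± 0.68 in Gfi1-WT and 0.982% ± 0.865 in GFI1-36N (SD, n = 3 each). By exact two-sided permutation tests the share did not pass between GFI1-KI and Gfi1-WT (p = 0.2), between GFI1-36N and GFI1-KI (p = 0.3) or between GFI1-36N and Gfi1-WT (p = 0.7), with Benjamini-Hochberg adjusted p of 0.45, 0.45 and 0.7 over these 3 tests.

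**Figure D3:**
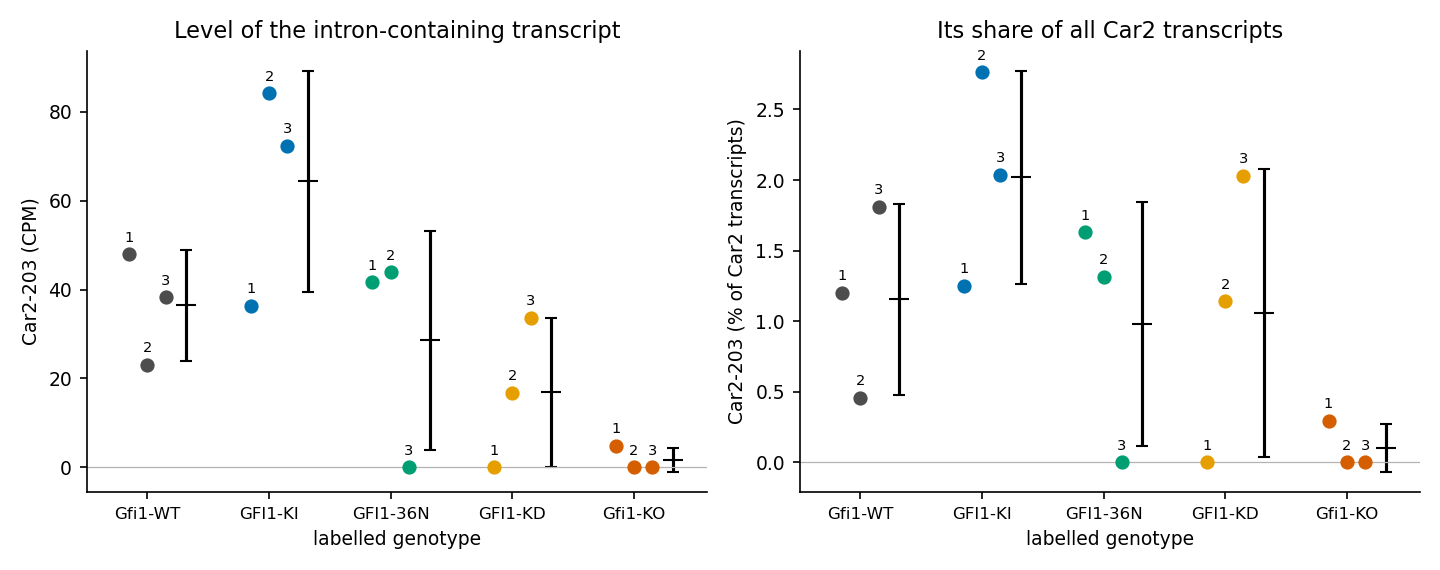
Car2-203, the transcript with bases of intron 2, in each of the 15 libraries by labelled genotype, as a level in CPM (left) and as a percentage of all Car2 transcripts (right), with replicate numbers above the points and the mean with its SD (n = 3) as a bar. Gfi1-KO libraries sit at 0.295% or at 0%, and the highest share is 2.76% in GFI1-KI replicate 2.

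Car2 was by far the main carbonic anhydrase of these HSCs. To compare genes, the estimated count of each transcript was divided by its length and scaled to the same total in each library, here called the level per kilobase. On this scale Car2 was at 3275 ± 1294 in Gfi1-WT, 2867 ± 385 in GFI1-KI, 2675 ± 447 in GFI1-36N, 1486 ± 183 in GFI1-KD and 1108 ± 352 in Gfi1-KO (SD, n = 3 each). Ranked among all genes by this level, Car2 held places 15 to 55 in Gfi1-WT, 24 to 35 in GFI1-KI and 29 to 46 in GFI1-36N. In GFI1-KD it held places 70 to 97 and in Gfi1-KO places 80 to 213. Car2 made up between 59.6% and 99.0% of the summed level per kilobase of the family. The lowest share was in Gfi1-KO replicate 2, where Car1, the other abundant carbonic anhydrase of red blood cells, was at 476 per kilobase against 733 for Car2. In the other libraries its share was at least 91.2%.

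**Figure D4:**
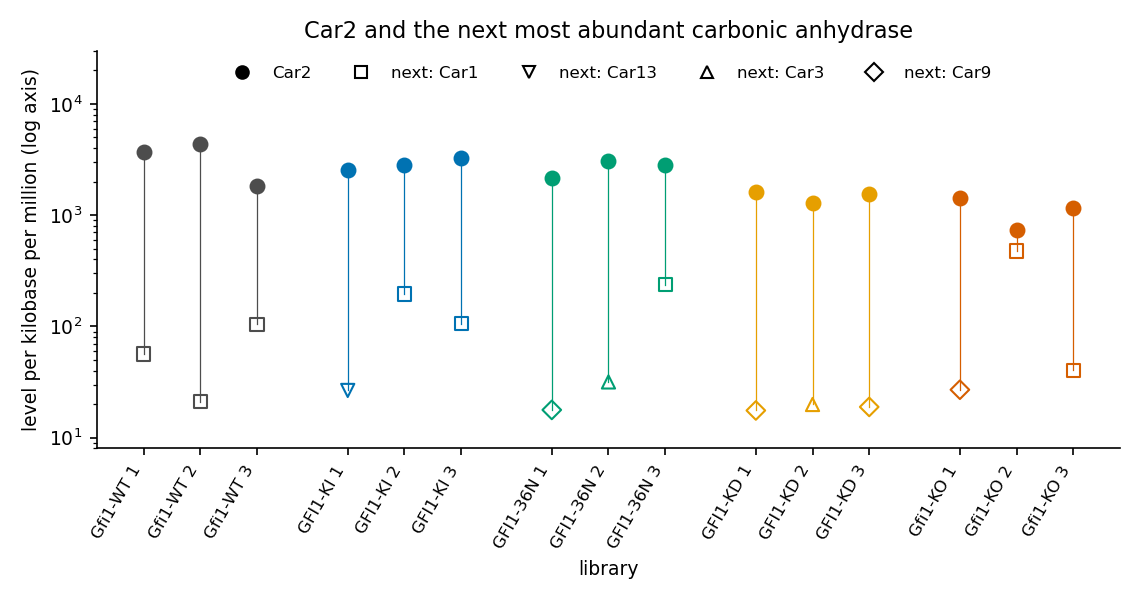
Level per kilobase (vertical log axis, the same total in each library) of Car2 (filled points) and of the next most abundant carbonic anhydrase (open symbols) in each of the 15 libraries, coloured by labelled genotype. Car2 is the highest in each library, and only in Gfi1-KO replicate 2 does another member, Car1, come close, at 476 against 733.

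Of the 16 carbonic anhydrases looked for, 6 besides Car2 passed the filter on low counts: Car1, Car3, Car5b, Car7, Car9 and Car13. None passed the test in any comparison, where 0% of all 13358 genes passed. Car1 was at 39.5, 14.8 and 74.7 CPM in Gfi1-WT, 0, 138 and 71.1 in GFI1-KI, 8.72, 0 and 195 in GFI1-36N, 0, 11.02 and 0 in GFI1-KD, and 0.711, 431 and 34.9 in Gfi1-KO. It thus varied widely within genotypes, and Gfi1-KO replicate 2 had the most Car1 and the least Car2. Its log2 fold change was −4.24 (standard error 3.03) in GFI1-KD against GFI1-KI and 1.86 (standard error 2.74) in Gfi1-KO against Gfi1-WT, with an edgeR adjusted p of 1 in both. Car9, a membrane-bound enzyme known to be induced by low oxygen, ranged from 0 to 23.4 CPM, and in GFI1-KD it was at 14.6 ± 2.8 CPM against 16.1 ± 3.23 CPM in GFI1-KI (SD, n = 3 each). Car3, known from muscle and fat, ranged from 0 to 54.3 CPM and Car5b, a mitochondrial enzyme, from 1.1 to 17.8 CPM. Car13, a cytosolic enzyme, was at 41.1, 4.92 and 12.5 CPM in GFI1-KI and was listed at 0 in all GFI1-KD and all GFI1-36N libraries. In Gfi1-KO it was at 2.67, 0 and 29.8 CPM, and in Gfi1-WT at 0.399, 10.4 and 0 CPM. Car7, also cytosolic, was at most 6.18 CPM. Car12 was at most 23.9 CPM and did not pass the filter. Car4, Car6 and Car15 were at 0 in all libraries, Car8 and Car10 stayed below 10 estimated counts in each, and Car5a, Car11 and Car14 reached 10 in 1 library each. Summed without Car2, the family was at 19.3 to 48.2 CPM in GFI1-KD and 64.9 to 183 CPM in GFI1-KI, without overlap, whereas Gfi1-KO (46.6 to 453 CPM) overlapped with Gfi1-WT (48.8 to 103 CPM). Of the 6 members tested, 4 were lower in GFI1-KD (median log2 change −0.68) and 2 in Gfi1-KO (median 0.84). Over all genes, 49.9% and 51.5% were lower. Sums of lists that did not overlap, here and below, are a description and were not tested. Of single genes, 5.05% were lower without overlap in GFI1-KD against GFI1-KI, and 4.9% in Gfi1-KO against Gfi1-WT. The share of genes higher without overlap was not counted.

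Several of these genes are neighbours of Car2. On its 5′ side lie Car3 at a distance of 13749 bases, Car1 at 77904 bases and Car13 at 223270 bases, followed by 1810022K09Rik and E2f5, which encodes a transcription factor of the cell cycle. On its 3′ side the nearest annotated protein-coding gene is Gm9733 at 395780 bases, followed by Sirpb1a, Sirpb1b, Sirpb1c and Gm5150. The gene 1810022K09Rik was not matched in the table. Gm9733, Sirpb1a, Sirpb1c and Gm5150 were at 0 in all libraries and Sirpb1b was near 0. E2f5 was at most 14.97 CPM and did not pass the test (edgeR adjusted p = 1 in both comparisons). Of the 4 neighbours tested, 3 had a negative log2 fold change in GFI1-KD and 1 in Gfi1-KO. Apart from Car1, no neighbour was above 54.3 CPM in any library.

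Genes that work with carbonic anhydrases move bicarbonate, protons and lactate across membranes. No member of these lists passed the test in either comparison, where 0% of all 13358 genes passed. Of 19 bicarbonate transporters 6 were tested, of which 5 had a higher value in GFI1-KD than in GFI1-KI (median log2 fold change 1.35) and 2 in Gfi1-KO than in Gfi1-WT (median −0.91). Their summed level was 105 to 164 CPM in GFI1-KD and 30.5 to 78.0 CPM in GFI1-KI. The gene of the sodium bicarbonate transporter Slc4a7 was at 37.4, 40.4 and 18.7 CPM in GFI1-KD and 13.9, 26.0 and 4.7 CPM in GFI1-KI, with overlap. That of the sulfate transporter Slc26a2 was at 126, 57.5 and 59.3 CPM against 59.2, 19.9 and 1.2 CPM, also with overlap. Slc4a8, a sodium-driven exchanger, was at 181 CPM in Gfi1-KO replicate 2 and at or near 0 in most libraries. Slc4a1, the anion exchanger of red blood cells, was at 0 in all libraries.
Of the proton and lactate transporters 15 of 18 were tested, with 7 lower in GFI1-KD (median log2 fold change 0.19) and 7 lower in Gfi1-KO (median 0.19). Their summed level was 272 to 837 CPM in Gfi1-KO and 236 to 270.0 CPM in Gfi1-WT, without overlap by a narrow margin. GFI1-KD and GFI1-KI overlapped. The chloride/proton exchanger gene Clcn3 had log2 fold changes of −1.06 (standard error 0.65) and −0.48 (standard error 0.64). Slc16a7, a lactate transporter, was at 582 CPM in Gfi1-KO replicate 2 and at most 184 CPM in the other libraries.
The V-ATPase is the proton pump that acidifies vesicles and, in osteoclasts, works beside carbonic anhydrase 2. Of its 19 tested subunit genes of 23, 12 had a higher value in GFI1-KD (median log2 fold change 0.28) and 10 in Gfi1-KO (median 0.086). Their summed level was 2465 to 2891 CPM in GFI1-KD and 2083 to 2332 CPM in GFI1-KI, without overlap, which was not tested. In Gfi1-KO it was 2506 to 3383 CPM and overlapped with the 2303 to 2755 CPM of Gfi1-WT. In GFI1-KD the log2 changes were 0.56 for Atp6v0e (standard error 0.33), 0.45 for Atp6v1f (standard error 0.28) and 0.17 for Atp6v1g1 (standard error 0.22), each with an edgeR adjusted p of 1. In Gfi1-KO these values were 0.11, 0.32 and 0.10. Atp6v0d2, the osteoclast subunit, was at 0 in all libraries.

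Marker genes of the cell types in which Car2 is best known were set beside it. None of their members passed the test in either comparison, where 0% of all 13358 genes passed, so that this does not tell them from other genes. Of 33 erythroid genes besides Car2, 29 were tested, with 16 lower in GFI1-KD (median log2 fold change −0.28) and 11 lower in Gfi1-KO (median 0.55). The summed erythroid level overlapped between the groups in both comparisons, with 1286 to 2059 CPM in GFI1-KD, 1223 to 2098 in GFI1-KI, 1430 to 2797 in Gfi1-KO and 1193 to 1551 in Gfi1-WT. Hemgn, a nuclear protein of blood progenitors, was at 360, 183 and 163 CPM in GFI1-KD and 54.3, 90.3 and 89.2 CPM in GFI1-KI, a log2 change of 1.59 (standard error 0.54, edgeR adjusted p = 1). Gfi1b, the paralog of Gfi1, had log2 fold changes of 0.18 and −0.013, and Prdx2, an antioxidant enzyme of red cells, of 0.022 and 0.32.
Of 22 tested megakaryocyte genes of 24, 9 were lower in GFI1-KD (median 0.38) and 9 in Gfi1-KO (median 0.15). Pf4, platelet factor 4, ranged from 0 in Gfi1-KO replicate 2 to 2068 CPM in Gfi1-KO replicate 3, and Mmrn1, which encodes multimerin, was also at 0 in the former. Cd9, a tetraspanin, had log2 fold changes of 0.54 (standard error 0.43) and 0.37 (standard error 0.43). Of 14 osteoclast genes 7 were tested, and Mmp9, Dcstamp, Calcr, Atp6v0d2 and Oscar were at 0 in all libraries. Medians of the tested ones were −0.062 and −0.12. Of the osteoclast genes with the highest level, Ostm1 had log2 fold changes of −0.062 and 0.92, Tcirg1 of −0.72 and −0.59, and the integrin gene Itgb3 of 0.72 and −0.12.

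Stem cell genes were split evenly in GFI1-KD HSCs. All 24 genes of the HSC list were tested, with 12 lower in GFI1-KD (median log2 fold change 0.0031) and 18 lower in Gfi1-KO (median −0.53). Over all genes, 49.9% and 51.5% were lower. The summed level of the list overlapped in both comparisons. Within Gfi1-KO (3751 to 4720 CPM) it was lowest in replicate 2, the library with high Cd48. The Gfi1-KO values include that library and were not computed without it. Meis1, a transcription factor of stem cells, had log2 fold changes of −0.48 (standard error 0.42) and −0.10 (standard error 0.42), and Angpt1, a ligand of the Tie2 receptor, of −0.056 and −0.15. Ifitm1, an interferon-induced gene, had values of 1.02 and 0.58. Genes of cycling cells and multipotent progenitors were lower in 10 of 16 cases in GFI1-KD (median −0.15) and in 3 of 16 in Gfi1-KO (median 0.36). Their summed level was 3332 to 4933 CPM in Gfi1-KO and 2390 to 2864 CPM in Gfi1-WT, without overlap. Top2a, a topoisomerase of dividing cells, had log2 fold changes of −0.64 and 0.66, the replication clamp gene Pcna of −0.076 and −0.20, and Tyms, an enzyme of nucleotide synthesis, of −0.23 and 0.31.

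Markers of other cells that a sort could hold were also read, again with no member past the test, which 0% of all 13358 genes passed. In Gfi1-KO replicate 2, the library with the least Car2, granulocyte genes summed to 3556 CPM (117 to 1431 CPM in the other libraries) and mast cell and basophil genes to 2328 CPM (27.3 to 536 CPM in the others). Mpo, Elane and Prtn3, enzymes of granules, were at 2382, 366 and 285 CPM there, and the basophil protease Prss34 and the mast cell protease Cpa3 at 1060 and 463 CPM. GFI1-KI replicate 2 came next for both lists, at 1431 and 536 CPM, with Mpo at 839, Elane at 191 and Prss34 at 279 CPM, and its Car2 level was 3042 CPM. The part of these markers in the Car2 level of either library was not tested. In Gfi1-KO replicates 1 and 3, where Car2 was at 1595 and 1565 CPM, Mpo was at 5.45 and 0 CPM. Of the tested granulocyte genes 7 of 9 were lower in GFI1-KD (median −1.14) and 3 of 9 in Gfi1-KO (median 1.54), and of the mast cell and basophil genes 5 of 7 (median −0.68) and 2 of 7 (median 3.0). These values include GFI1-KI replicate 2 and Gfi1-KO replicate 2, and were not computed without them. In GFI1-KI replicates 1 and 3, Mpo and Elane were at 0. In GFI1-KD they were at 37.7 to 66.8 CPM and 14.2 to 103 CPM. Prss34 was at 0 in Gfi1-KO replicates 1 and 3. Gata2, a transcription factor shared by stem cells and mast cells, had log2 fold changes of −0.68 and −0.61. It was at 7.96 CPM in Gfi1-KO replicate 2, and at 92.0 and 62.6 CPM in replicates 1 and 3.
Monocyte and macrophage genes were lower in 5 of 9 cases in GFI1-KD (median −1.35) and in 2 of 9 in Gfi1-KO (median 1.37). Among them, lysozyme (Lyz2) had log2 fold changes of 0.23 and 0.28. Cd68 and Ly6c2 were at most 103 and 94.1 CPM, both in Gfi1-KO replicate 2. Stromal and endothelial genes were lower in 5 of 7 cases (median −0.089) and in 2 of 7 (median 0.98), with Pecam1, Runx2 and Emcn as the highest, and Col1a1, Pdgfra, Cdh5, Adipoq and Bglap at 0 in all libraries. B cell genes were lower in 1 of 4 cases (median 0.18) and in 4 of 4 (median −0.40). Their sum was mostly Ebf1, at 879 to 1471 CPM. Cd79b was at most 146 CPM, Ms4a1 at most 4.32 CPM, and Pax5 and Igll1 were at 0 in all libraries.
T and NK cell genes were lower in 1 of 4 cases in GFI1-KD (median 0.55) and in 2 of 4 in Gfi1-KO (median −0.20), and their sum was 496 to 550 CPM in GFI1-KD against 288 to 364 CPM in GFI1-KI, without overlap. This came from the granule protein gene Nkg7, at 489, 425 and 409 CPM in GFI1-KD and 251, 227 and 264 CPM in GFI1-KI. Without it the sums were 61.0 to 110 CPM and 44.8 to 113 CPM. In Gfi1-KO, Nkg7 was at 296, 938 and 709 CPM against 138, 234 and 328 CPM in Gfi1-WT, with overlap, and its log2 fold change was 1.47 (standard error 0.43, edgeR adjusted p = 1) against 0.83 (standard error 0.42, adjusted p = 1) in GFI1-KD. The mean of Nkg7 was thus higher in both genotypes with less Car2, without passing the test. Lck and Gata3 had log2 fold changes of 0.86 and −0.073 in GFI1-KD and of −1.30 and 0.91 in Gfi1-KO, and Cd3e, Cd3g, Cd4 and Ncr1 were at 0 in all libraries. The part of these genes in the Car2 level was not tested.

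The 6 genes whose log2 CPM followed Car2 most closely over the 15 libraries were Ssbp3, Ubr1, Nedd4, Pdlim7, Clec7a and Xpo1. Pearson's r is given as a description, since libraries share genotypes and the genes were picked as the highest of all other genes tested. Ssbp3, which encodes a cofactor of LIM-domain transcription complexes, had an r of 0.87 (Spearman's rho 0.84) and an r of 0.82 after subtracting the genotype means. Its level was 34.2 to 75.6 CPM in Gfi1-KO and 54.1 to 77.9 CPM in GFI1-KD, against 56.8 to 151 CPM in Gfi1-WT and 101.7 to 119 CPM in GFI1-KI. Ubr1 and Nedd4, which encode ubiquitin ligases, had an r of 0.83 and 0.81 (rho 0.81 and 0.79, within genotypes 0.78 and 0.62). Pdlim7, a cytoskeletal adaptor gene, had an r of 0.81 (rho 0.79, within genotypes 0.50) and is 1 of the 49 genes below both controls. Clec7a, which encodes the receptor dectin-1, had an r of 0.81 (rho 0.73). It was listed at 0 in all GFI1-KD and Gfi1-KO libraries, and also in some Gfi1-WT and GFI1-KI libraries. Xpo1, the nuclear exportin gene, had an r of 0.79 (rho 0.80, within genotypes 0.69). Without Gfi1-KO replicate 2 and Gfi1-WT replicate 2, the libraries farthest from the median of Car2, r was between 0.66 for Xpo1 and 0.81 for Clec7a. The choice of these genes depends on the setting, as 2 of the 6 were also among the first 6 by Spearman's rho and 1 without GFI1-KD replicate 1 and GFI1-36N replicate 3.

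**Figure D5:**
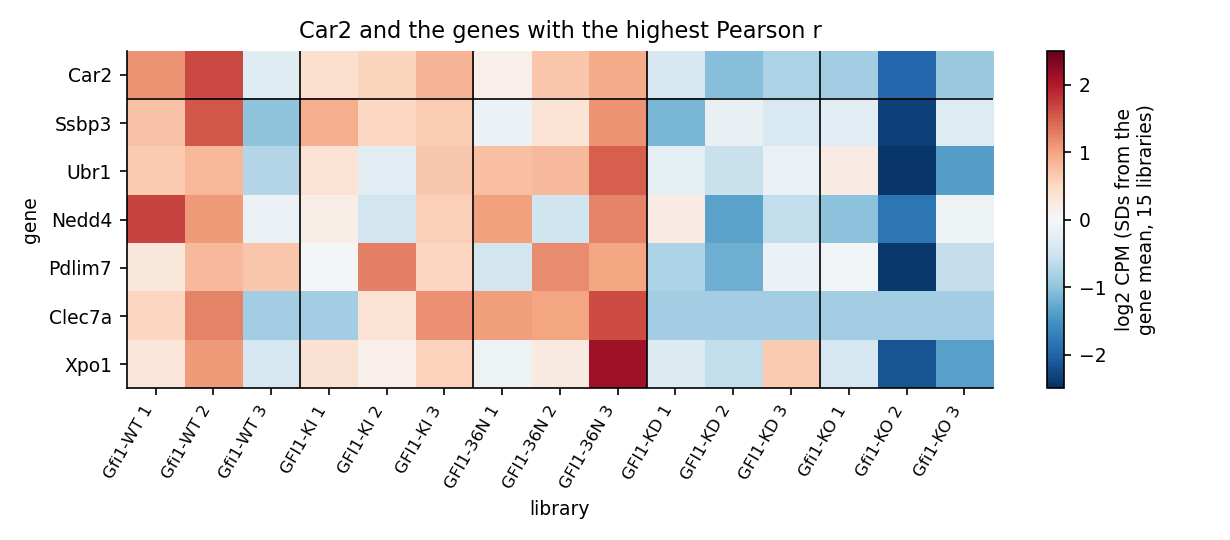
Log2 CPM of Car2 (top row) and of the 6 genes with the highest Pearson r to it in each of the 15 libraries, drawn as SDs from the mean of each gene (red above, blue below), with lines between the labelled genotypes. GFI1-KD and Gfi1-KO libraries are mostly blue, Gfi1-KO replicate 2 is the lowest in most rows, and the r values run from 0.79 to 0.87.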

How the data were processed

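HSC libraries were sequenced single-end from poly(A) RNA. The authors quantified reads with Salmon against the Ensembl mouse cDNA set of GRCm38, with corrections for GC, sequence and positional bias. They deposited estimated counts (length-scaled TPM, not whole, not normalized between libraries) per gene symbol and per transcript. The submitters' notes name sleuth 0.30.0 and R 4.2.1. A row without a gene symbol (0.00679% to 0.0719% of a library) was left out. Human GFI1 is not in a mouse cDNA set.

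For the fit, rounded values were used (edgeR 4.0.16 in R 4.3.3: TMM factors, genes kept by filterByExpr at a count of 10 and a total of 15, quasi-likelihood F test, 1 fit of all 15 libraries, Benjamini-Hochberg adjustment over 13358 genes, threshold 0.05). Log2 CPM used a prior count of 2. Annotation and sequences came from GENCODE M21 on GRCm38, in which 98.94% of the transcripts were matched. Levels per kilobase used its transcript lengths.

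Car2, the lists (15) and the tests were chosen with earlier results of these data known. Named genes were Car2 and its transcripts, the carbonic anhydrases, 5 protein-coding genes on each side, the 6 genes with the highest r, and the 3 members of each other list with the highest mean CPM. For 1 gene that the rule selects, the result is not reported here. Exceptions are named as such, and genes at 0, sort genes and Y-linked genes were given as checks.

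Alternatives were the fit of the genotypes compared only, a replicate block, single libraries left out, no filter or the filter of sleuth (5 counts in 47% of libraries), median-ratio and upper-quartile normalization, DESeq2 1.42.0, limma-trend (limma 3.58.1) on log2(CPM + 1), leaving out GFI1-KD replicate 1 with GFI1-36N replicate 3, the sum of transcripts, and for likeness Spearman's rho or a prior count of 0.5.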

Additional observations from a re-analysis of the deposited data

How the results depend on the processing

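In GFI1-KD against GFI1-KI, the log2 fold change of Car2 was −1.01 to −0.87 over 10 alternatives and −1.0 to −0.78 without single libraries. In Gfi1-KO against Gfi1-WT it was −1.41 to −1.35, and −1.67 to −1.07. The sign in these comparisons was set by the choice of Car2, so that the ranges describe the size only. Against Gfi1-WT, the value of GFI1-KI was −0.23 to −0.14, and −0.51 to 0.088 without single libraries. That of GFI1-36N was −0.33 to −0.14, and −0.51 to 0.087. The near-zero value of GFI1-36N against GFI1-KI turned positive with a replicate block (0.000897), median-ratio (0.037) or upper-quartile normalization (0.084), DESeq2 (0.037) and the sum of transcripts (0.025), and ran from −0.12 to 0.14 without single libraries. The lowest adjusted p over all these alternatives was 0.946 for GFI1-36N against Gfi1-WT, so that none passed. Libraries that share a replicate number were not taken as paired, because their deviations correlated above 0.1 in 1 of 30 cases, and a replicate block gave Car2 values of −0.88, −1.41, −0.23 and −0.23 in the other comparisons.

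Without single libraries, between 66 and 120 genes lay below both controls, and between 43 and 70 under the other 4 alternatives. Of the 6 genes most like Car2, 2 remained by Spearman's rho, 1 without GFI1-KD replicate 1 and GFI1-36N replicate 3, and 5 with a prior count of 0.5. The median share of Car2-201 was 100.5% of the gene row, in which counts are scaled separately from those of transcripts. Over all genes, DESeq2 called 163, 180, 131, 365 and 356 genes in the 5 comparisons, where edgeR called 0. Depth did not limit Car2, but 3 libraries a genotype leave intervals of about 0.59 on either side.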
